A study of Mus musculus with 6 samples.

Results

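The S100 genes encode small calcium-binding proteins, and 8 of them were followed here in LT-HSC, the long-term stem cells of mouse blood, sorted from bone marrow: S100a1, S100a4, S100a6, S100a8, S100a9, S100a10, S100a11 and S100a13. They were chosen by name from the probe sets that carry a single gene symbol, and each of the 8, out of 22180 genes with such a probe set, was represented by 1 probe set. The tested samples were 3 arrays of LT-HSC from pools of animals expressing NPMc+, a mutant nucleophosmin that is found in the cytoplasm and occurs in acute myeloid leukaemia, and the comparison samples were 3 arrays of LT-HSC from pools of control animals. All cells came from bone marrow of strain C57/BL6 and were sorted 4 months after a bone marrow transplantation. Each array therefore stands for a pool and not for an animal, and the labels give neither the promoter of the mutant, the number of animals per pool nor what the controls carried. The series title sets the comparison in the context of stem cell dormancy in myeloid leukaemia.

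S100 proteins bind calcium through EF-hand loops, which changes their shape and lets them grip a target protein. Inside cells they act on the cytoskeleton, on annexins at membranes and on enzymes. Some are also released and act on receptors of other cells. In bone marrow S100a8 and S100a9 are best known as abundant cytosolic proteins of neutrophils and monocytes, while S100a4, S100a6, S100a10 and S100a11 are found in many cell types.

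Of these 8 genes, S100a4 and S100a6 were lower in NPMc+ pools, by 1.73-fold and 1.78-fold, at an unadjusted p under 0.05 in a limma fit with the pairs of same-numbered arrays as a block. S100a8 and S100a9 were 1.35-fold and 1.50-fold lower on average without reaching that level, with nearly all of the difference in pairs 1 and 2. S100a10 was 1.28-fold higher by almost the same amount in every pair, also without reaching it. S100a1, S100a11 and S100a13 showed no difference that exceeded the spread between pairs. After Benjamini-Hochberg adjustment over all 16635 genes tested, 0 of the 8 were past 0.05 in limma, as was 0% of all genes. At an unadjusted p under 0.05, 2 of the 8 were lower and 0 higher, against 3.02% and 5.95% of all genes tested. The members' median difference was -0.25 log2 units, beside 0.03 for all genes tested.

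Values are log2 expression from RMA, the submitters' array normalization, and 1 unit is a doubling. The deposited values are centred on each same-numbered pair: the mean of its NPMc+ and control array is the same in pairs 1, 2 and 3. Both groups therefore have the same standard deviation for every gene, and groups that do not overlap are the same thing as a difference of 1 sign in 3 of 3 pairs. Levels of different genes are not compared, since each probe set has its own response.

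**Figure D1:**
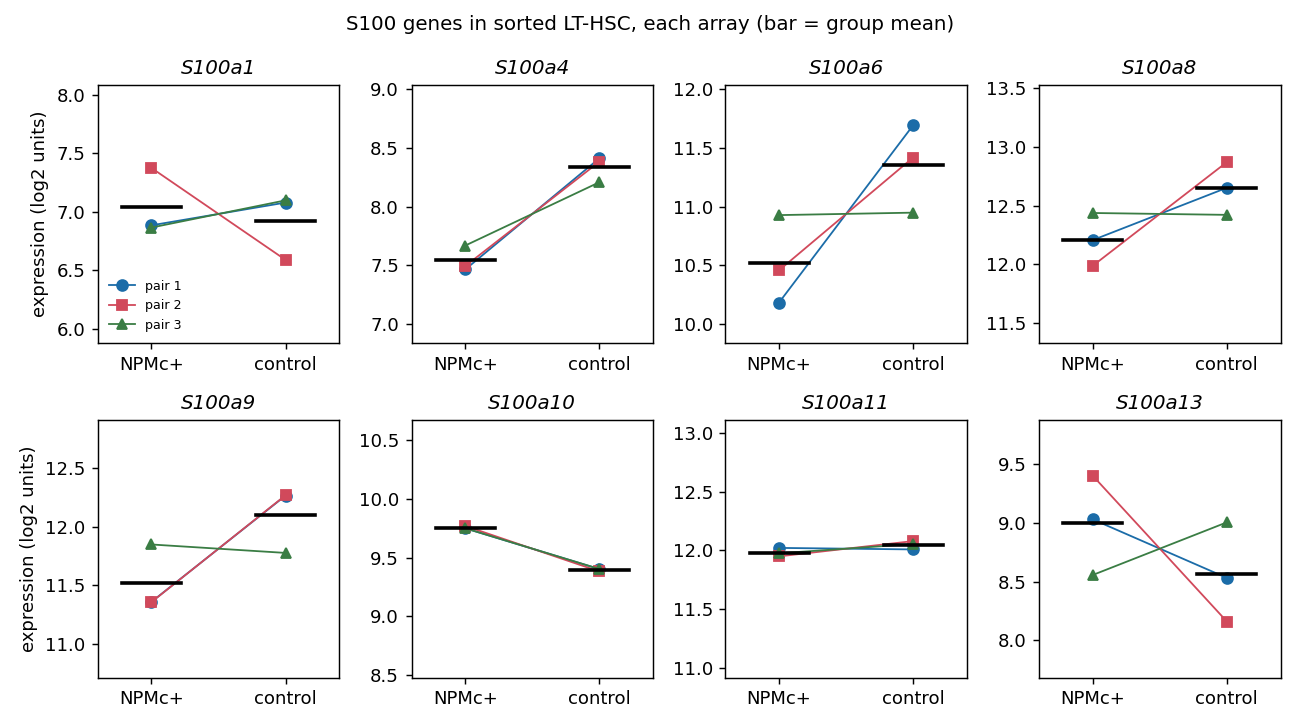
Expression of the 8 S100 genes (log2 units, vertical axes spanning equal ranges) on each NPMc+ array, left, and each control array, right. Lines join the arrays of a pair, colours and symbols mark pairs 1 to 3 and black bars are group means. For S100a4 and, narrowly, S100a6 every NPMc+ array lies below every control array, as for 12.8% of all genes tested. For S100a10 every NPMc+ array lies above, as for 17.4%. The lines of pairs 1 and 2 of S100a9 coincide.

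All 8 genes lie on chromosome 3 in the RefSeq annotation. S100a8 and S100a9 are neighbours with 0 protein-coding genes starting between them, as are S100a11 and S100a10. S100a1 and S100a13 are neighbours too, and their annotated extents share 98 bases; whether their probe sets read a single strand is not given in the sources used here. S100a4 and S100a6 have 1 protein-coding gene between them, S100a5, whereas 56 lie between S100a9 and S100a11. RefSeq's promoter windows, of 250 bases before and 50 from the annotated start on, were at hand for 7 of the 8 genes, all but S100a10. The bases before the start are shown for the 4 genes with the lowest mean differences, so that the pair that neighbours each other in the genome can be set beside the other pair. The windows are chr3:90603520-90603769 (plus strand) for S100a4, chr3:90612644-90612893 (plus) for S100a6, chr3:90668821-90669070 (plus) for S100a8 and chr3:90695722-90695971 (minus) for S100a9, in build GRCm38.p6. Capitals mark matches, on either strand, to TATAAA (the TATA box), GAGGAA (the core bound by PU.1 and other Ets factors), TTGCNNAA (C/EBP) or TGANTCA (AP-1).
S100a4: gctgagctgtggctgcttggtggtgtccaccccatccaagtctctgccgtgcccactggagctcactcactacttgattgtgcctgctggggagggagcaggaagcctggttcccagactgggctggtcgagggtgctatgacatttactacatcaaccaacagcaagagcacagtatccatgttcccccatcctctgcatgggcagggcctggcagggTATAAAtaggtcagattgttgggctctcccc
S100a6: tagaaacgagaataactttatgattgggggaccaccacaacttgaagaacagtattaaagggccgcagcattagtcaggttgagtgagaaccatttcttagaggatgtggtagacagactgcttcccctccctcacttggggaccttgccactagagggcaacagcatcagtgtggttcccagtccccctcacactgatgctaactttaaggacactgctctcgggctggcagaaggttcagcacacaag
S100a8: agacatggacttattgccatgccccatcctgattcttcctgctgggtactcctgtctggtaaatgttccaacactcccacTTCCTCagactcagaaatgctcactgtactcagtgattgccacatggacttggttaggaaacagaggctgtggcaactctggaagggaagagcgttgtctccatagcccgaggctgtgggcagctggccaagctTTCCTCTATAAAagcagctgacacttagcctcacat
S100a9: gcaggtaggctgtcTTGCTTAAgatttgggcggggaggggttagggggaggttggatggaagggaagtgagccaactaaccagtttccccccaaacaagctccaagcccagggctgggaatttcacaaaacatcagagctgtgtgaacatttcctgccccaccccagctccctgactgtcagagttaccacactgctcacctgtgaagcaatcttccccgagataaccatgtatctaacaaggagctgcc
S100a4 and S100a8 hold TATAAA at 31 and 30 bases before the start, and in S100a9 these letters begin at the annotated start itself, just past the stretch shown. These letters stand in 13.6% of all 32851 windows. The PU.1 core occurs in S100a8 at 170 and 36 bases before the start, the second match touching the TATA box, in S100a11 at 153 bases before it and in S100a4 at 20 bases from the start on, and in 28.3% of all windows. The C/EBP letters were found in S100a9, 236 bases before the start, and in 10.8% of windows. The AP-1 letters were found in S100a11, at 136 and 38 bases before the start, and in 7.81% of windows. S100a6, S100a1 and S100a13 held none of these letters. A match is a stretch of letters and was not tested as a binding site.

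S100a8 and S100a9 form the heterodimer calprotectin, which neutrophils hold in large amounts and release as an alarm signal. S100a8 read 12.21, 11.99 and 12.44 log2 units in NPMc+ pools 1, 2 and 3, against 12.65, 12.87 and 12.42 in control pools 1, 2 and 3. S100a9 read 11.36, 11.36 and 11.85 in NPMc+ pools and 12.27, 12.27 and 11.78 in control pools. For both genes the NPMc+ array was the lower of the pair in pairs 1 and 2 and slightly the higher in pair 3, so the groups overlapped. The NPMc+ minus control difference of S100a8 was -0.45, -0.88 and 0.02 in pairs 1, 2 and 3, with a mean of -0.44 ± 0.23 (SE, n = 3 pairs; 95% interval -0.98 to 0.10; limma p 0.0958, adjusted p 0.634). That of S100a9 was -0.91, -0.91 and 0.07, with a mean of -0.58 ± 0.25 (SE, n = 3 pairs; 95% interval -1.18 to 0.02; limma p 0.0558, adjusted p 0.573). Among the 28 pairs of members, these partners had the most alike set of differences, with a distance of 0.46 log2 units over the 3 array pairs. The gap between them was in array pair 1. The S100a8 difference minus that of S100a9 was 0.46, 0.03 and -0.06 in pairs 1, 2 and 3. Among all genes tested, the 5 nearest lay closer, at 0.03 to 0.11 for S100a8 and 0.09 to 0.19 for S100a9. Without pair 3 the mean differences were -0.67 for S100a8 and -0.91 for S100a9 (limma adjusted p 0.616 and 0.398), and without pair 2 that of S100a8 was -0.22.

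S100a4, which binds non-muscle myosin and is linked to cell motility, had the smallest limma p of the 8. It read 7.46, 7.49 and 7.67 log2 units in NPMc+ pools, against 8.41, 8.38 and 8.21 in control pools. Every NPMc+ array lay below every control array, with 0.54 units between the nearest 2. The differences of -0.95, -0.89 and -0.54 in pairs 1, 2 and 3 had a mean of -0.79 ± 0.19 (SE, n = 3 pairs; 95% interval -1.24 to -0.34; limma p 0.00451, adjusted p 0.371). S100a4 and S100a6 were the 2 members lower in 3 of 3 pairs, which 12.8% of all tested genes were, and S100a10 the 1 member higher in all, which 17.4% were. S100a4 kept an unadjusted p under 0.05 in limma in 10 of 10 settings, the one above included, all drawn from the same 3 pairs. The limma adjusted p-values were 0.341 to 0.619 in settings with the pair as a block. The fit without the block, whose p-values are too small, gave 0.0173.

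S100a6, also called calcyclin, is a partner of annexins and of the ubiquitin ligase adaptor encoded by Cacybp. It read 10.18, 10.46 and 10.93 log2 units in NPMc+ pools and 11.69, 11.42 and 10.95 in control pools. The arrays of pair 3 differed hardly at all, those of pair 1 most. The differences were -1.51, -0.96 and -0.02, with a mean of -0.83 ± 0.30 (SE, n = 3 pairs; 95% interval -1.54 to -0.12; limma p 0.0283, adjusted p 0.510). Although its mean was the lowest of the 8, it was uneven: the mean was -1.24 without pair 3 and -0.49 without pair 1. The S100a6 difference minus that of S100a4 was -0.56, -0.07 and 0.52 in pairs 1, 2 and 3, so S100a6 was the lower of them in pair 1 and the higher in pair 3.

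S100a10 forms a complex with annexin A2 at the plasma membrane and is unusual in its family because it has lost the ability to bind calcium. It read 9.75, 9.77 and 9.75 log2 units in NPMc+ pools, against 9.40, 9.38 and 9.40 in control pools. All NPMc+ arrays lay above all control arrays, and the pairs hardly varied. The differences of 0.35, 0.39 and 0.35 had an SD of 0.0231 over pairs and a mean of 0.36 ± 0.17 (SE, n = 3 pairs; 95% interval -0.06 to 0.78; limma p 0.0790, adjusted p 0.617). The SE is larger than this SD would give because limma draws each gene's variance towards that of all genes, and an SD this small from 3 pairs is itself uncertain. Annexin A2 itself, Anxa2, had means of 8.77 in NPMc+ and 8.90 in control pools, a difference of -0.13 ± 0.19 (SE).

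S100a11, a partner of annexin A1 that neighbours S100a10 in the genome, read 12.02, 11.95 and 11.98 log2 units in NPMc+ pools and 12.01, 12.08 and 12.05 in control pools. The groups overlapped, with differences of 0.01, -0.13 and -0.08 and a mean of -0.07 ± 0.17 (SE, n = 3 pairs; 95% interval -0.48 to 0.35; limma adjusted p 0.945). The neighbours S100a10 and S100a11 thus had values on different sides of 0 in pairs 2 and 3, while in pair 1 both were positive.

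S100a1, best known from heart and skeletal muscle where it acts on calcium handling, read 6.89, 7.37 and 6.87 log2 units in NPMc+ pools and 7.08, 6.59 and 7.10 in control pools. S100a13, which takes part in the export of the growth factor encoded by Fgf1 from cells, read 9.03, 9.40 and 8.56 in NPMc+ pools and 8.53, 8.16 and 9.01 in control pools. For both overlapping genes pair 2 had the highest difference and pair 3 the lowest: -0.19, 0.78 and -0.23 for S100a1, and 0.50, 1.24 and -0.45 for S100a13. The means were 0.12 ± 0.25 and 0.43 ± 0.32 (SE, n = 3 pairs; 95% intervals -0.49 to 0.73 and -0.34 to 1.20; limma adjusted p 0.929 and 0.760). They rest on pair 2, without which S100a1 was at -0.21 and S100a13 at 0.03. S100a13 was at 0.87 without pair 3 (limma adjusted p 0.509).

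**Figure D2:**
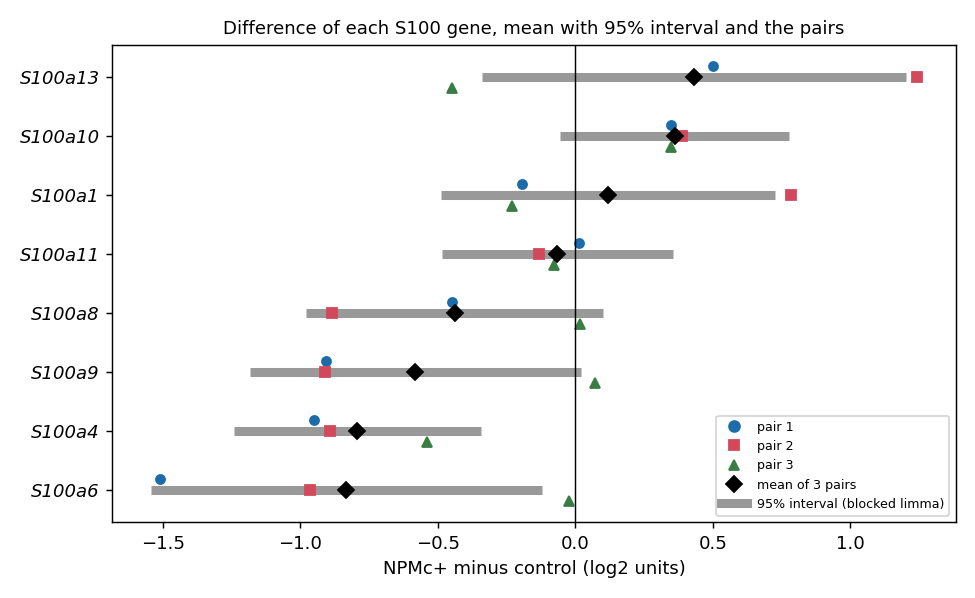
NPMc+ minus control difference (log2 units, horizontal axis) of each S100 gene, ordered by the mean of 3 pairs (black diamond), with the 95% interval of the blocked limma fit (grey) and the 3 pairs as coloured symbols. The intervals of S100a4 and S100a6 lie below 0; in S100a6, S100a8 and S100a9 pair 3 sits near 0, and in S100a10 the pairs fall together.

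The genes whose 3 differences lay nearest to those of a member, by Euclidean distance over the pairs among all genes tested, were named for the 3 members with the largest mean difference. For S100a6 they were St3gal5, Cd300ld, Lcn2, Camp and Lrg1, at distances of 0.21 to 0.28 log2 units. Of these, Lcn2 (-1.43, -1.08 and -0.18 in pairs 1, 2 and 3) and Camp (-1.70, -1.14 and -0.04) encode proteins of neutrophil granules. For S100a4 they were Rasgrp4, G0s2, Fbxl5, Ankrd22 and Ublcp1, at 0.07 to 0.24, with Rasgrp4 at -0.92, -0.88 and -0.60. For S100a9 they were Lrch2, Lyz2, Itgam, Dhrs9 and Olfr688, at 0.09 to 0.19. Lyz2, the lysozyme of myeloid cells, differed by -1.02, -0.86 and 0.03, and Itgam, the CD11b integrin chain, by -0.97, -0.80 and 0.17. With 3 values per gene many genes can lie close by, and these lists are a description.

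Neutrophil markers differed in the same pairs as S100a6, S100a8 and S100a9. Of 26 such genes tested, 24 were lower in NPMc+ pools, 17 of those with an unadjusted limma p under 0.05, as none of the higher ones had, and 0 passed after adjustment over all genes. Of all 16635 genes tested, 7504 were lower, and 3.02% were lower at that unadjusted level. The median difference of the 26 was -0.97 log2 units, with medians of -1.42, -1.44 and -0.07 in pairs 1, 2 and 3. The 27 neutrophil genes on the array had summed levels of 13.244 to 13.872 log2 units in NPMc+ and 14.005 to 14.765 in control pools. Linear values were summed before taking log2, so the brightest genes weigh most. Ly6g, the surface marker of mature neutrophils, had means of 6.43 in NPMc+ and 8.56 in control pools and differed by -3.51, -2.48 and -0.42 in pairs 1, 2 and 3, the collagenase gene Mmp8 by -2.77, -2.45 and -0.20, and the lactoferrin gene Ltf by -2.08, -1.35 and -0.04. Ngp, another granule gene, differed by -1.79, -0.81 and 0.11. The part of these cells in the S100 differences was not tested, and in bulk RNA fewer cells of a type and less RNA per cell cannot be told apart. In pair 3 the single neutrophil genes ran from -2.38 to 0.36, and 4 of the 26, Olfm4, Stfa1, Ifitm6 and Trem3, lay below the -0.54 of S100a4.

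Of 10 primary granule and precursor genes, 9 were higher in NPMc+ pools, with a median of 0.34 log2 units. Their pair medians were 0.51, 0.26 and -0.006 in pairs 1, 2 and 3. The 2 higher at an unadjusted p under 0.05 in limma were Prss57 and Nkg7. Mpo and Elane did not reach that level and differed by -0.003 and -0.009 in pair 3. The 10 single genes ran from -0.55 to 0.66 in that pair. Of 19 monocyte genes, 18 were lower, 7 of these at that level, with a median of -0.58 and pair medians of -0.25, -0.50 and -0.39. Their summed level was 12.46 to 12.66 in NPMc+ pools and 12.88 to 13.12 in control pools. The filter on dim genes kept 16635 of 22180 genes, so passing it says little about presence. All 25 LT-HSC markers on the array passed it. In NPMc+ pools 19 of them were higher and 6 lower, from -0.33 to 1.33, with a median of 0.39. At that unadjusted level 10 were higher and 0 lower. Mecom, Hoxb5, Hoxa9 and Gata2 differed most, by 1.33, 1.09, 1.06 and 1.04. Procr, which marks primitive stem cells, was not among the 10 and had means of 5.41 in NPMc+ and 5.33 in control pools. Markers that a stem cell sort should leave out passed the filter as well, 26 of 27 for neutrophils and 19 of 19 for monocytes. So did 12 of 13 for B cells, 13 of 14 for T and NK cells and 10 of 10 for erythroid cells. Of the last 3 lists, 9, 6 and 7 lower genes had an unadjusted limma p under 0.05, with medians of -1.24, -0.78 and -0.74. Some genes of each of these lists were dim, with NPMc+ means below the array medians of 3.90 to 3.99. Of 9 megakaryocyte genes, 7 were higher at that unadjusted level and 1 lower, with a median of 0.80. None of the 11 cell cycle genes reached that level (median -0.17). Beside all these counts, 5.95% of all genes tested were higher and 3.02% lower at that level.

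The pools also differed in sex-linked RNA. For Xist, which coats and silences an X chromosome in female cells, the NPMc+ minus control difference was -5.44, -5.39 and 0.48 in pairs 1, 2 and 3. For the Y-linked genes it was 4.69, 0.93 and 0.35 for Uty, 5.49, 0.36 and -0.79 for Eif2s3y and 3.48, 1.29 and -0.67 for Kdm5d. Xist thus differed most in pairs 1 and 2, and the Y-linked genes most in pair 1. Pairs 1 and 2 were also those in which S100a6, S100a8, S100a9 and the neutrophil median differed most. The part of the sex-linked differences in the S100 values was not tested.

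**Figure D3:**
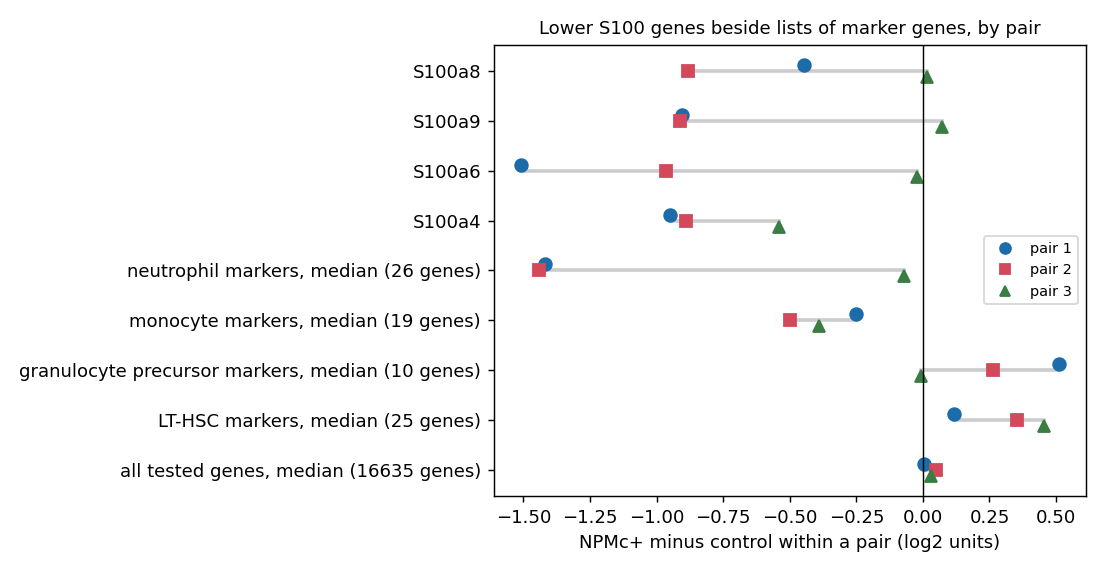
Differences between the NPMc+ and the control array of each pair (log2 units, horizontal axis) for the 4 lower S100 genes and, below them, medians of marker lists. Pair 3 (triangles) is at 0.02 for S100a8, 0.07 for S100a9, -0.02 for S100a6, -0.54 for S100a4 and -0.07 for the neutrophil median, around which single genes run from -2.38 to 0.36.

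Among other genes of the family, S100pbp, which encodes an S100P-binding protein, and the epidermal genes in which an S100 domain is fused to a longer protein, 17 were on the array and 6 passed the filter on dim genes. The 6 were S100a2, S100a3, S100a7a, S100a14, S100g and S100pbp, and 0 had an unadjusted p under 0.05 in limma. Their differences ran from -0.35 for S100a2 to 0.34 for S100pbp, with a median of -0.17 log2 units. Apart from S100pbp they were dim, with group means from 3.18 (S100g, NPMc+) to 4.36 (S100a7a, control) around array medians of 3.90 to 3.99. S100b, S100z, S100a5 and S100a16 were below the filter and were not tested.

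Of 12 receptor genes reported for released S100 proteins, 3 were lower in NPMc+ pools at an unadjusted p under 0.05 and 0 higher. Their median was -0.21 log2 units, and 0 passed the adjustment. Among all genes tested, 3.02% were lower and 5.95% higher at that level. The scavenger receptor gene Cd36 differed by -1.18 ± 0.22 (SE, n = 3 pairs), and its pair values were -1.68, -0.99 and -0.88. It was dim, with means of 3.63 in NPMc+ and 4.82 in control pools, beside array medians of 3.90 to 3.99. Cd33, whose human product binds S100A9, differed by -0.86 ± 0.28, with pair values of -1.23, -1.30 and -0.06 that were again near 0 in pair 3. Nptn, whose human product is a receptor of S100A8, differed by -0.67 ± 0.18, with -0.60, -0.77 and -0.64. The best known receptors did not reach that level: Tlr4 differed by 0.43 ± 0.23, and Ager, the receptor for advanced glycation end products, by -0.24 ± 0.39 with -0.77, -0.97 and 1.01 in the pairs.

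Of 25 genes of intracellular partners and export, 3 were lower in NPMc+ pools at this unadjusted level and 0 higher. Their median was -0.02 log2 units. The shares of all genes tested were 3.02% lower and 5.95% higher at that level. Cybb, the catalytic subunit of the phagocyte NADPH oxidase to which S100A8 and S100A9 carry arachidonic acid, differed by -1.23 ± 0.36 (SE, n = 3 pairs), with -1.67, -1.92 and -0.10 in pairs 1, 2 and 3. The inflammasome gene Nlrp3 differed by -1.05 ± 0.18, and all of its pairs were near that value between -1.24 and -0.92. Ahnak, a scaffold bound by the complex of S100A10 and annexin A2, differed by -0.70 ± 0.23, with -0.20, -1.09 and -0.81. The annexins Anxa1, Anxa5 and Anxa6 differed by -0.35, 0.47 and 0.34, and the myosin gene Myh9, whose product S100A4 binds, by 0.49 ± 0.23. Fgf1 differed by 0.10 ± 0.25.

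Of 13 transcription factors reported to act on S100a8 and S100a9, Stat3 was higher at an unadjusted p under 0.05, by 0.74 ± 0.19 log2 units (SE, n = 3 pairs; limma adjusted p 0.398), with 0.50, 0.88 and 0.84 in the pairs. Irf8, a factor of monocytes and dendritic cells, was lower by the same measure, at -0.80 ± 0.30 (limma adjusted p 0.514), with -0.48, -1.65 and -0.25. The other 11 did not reach that level. Of all genes tested, 5.95% were higher and 3.02% lower at it, so 1 of 13 each way says little about these factors. Spi1, which encodes PU.1, was at -0.0005 ± 0.20, and the C/EBP genes Cebpa, Cebpb and Cebpe at 0.34 ± 0.23, -0.19 ± 0.23 and 0.38 ± 0.19.

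**Figure D4:**
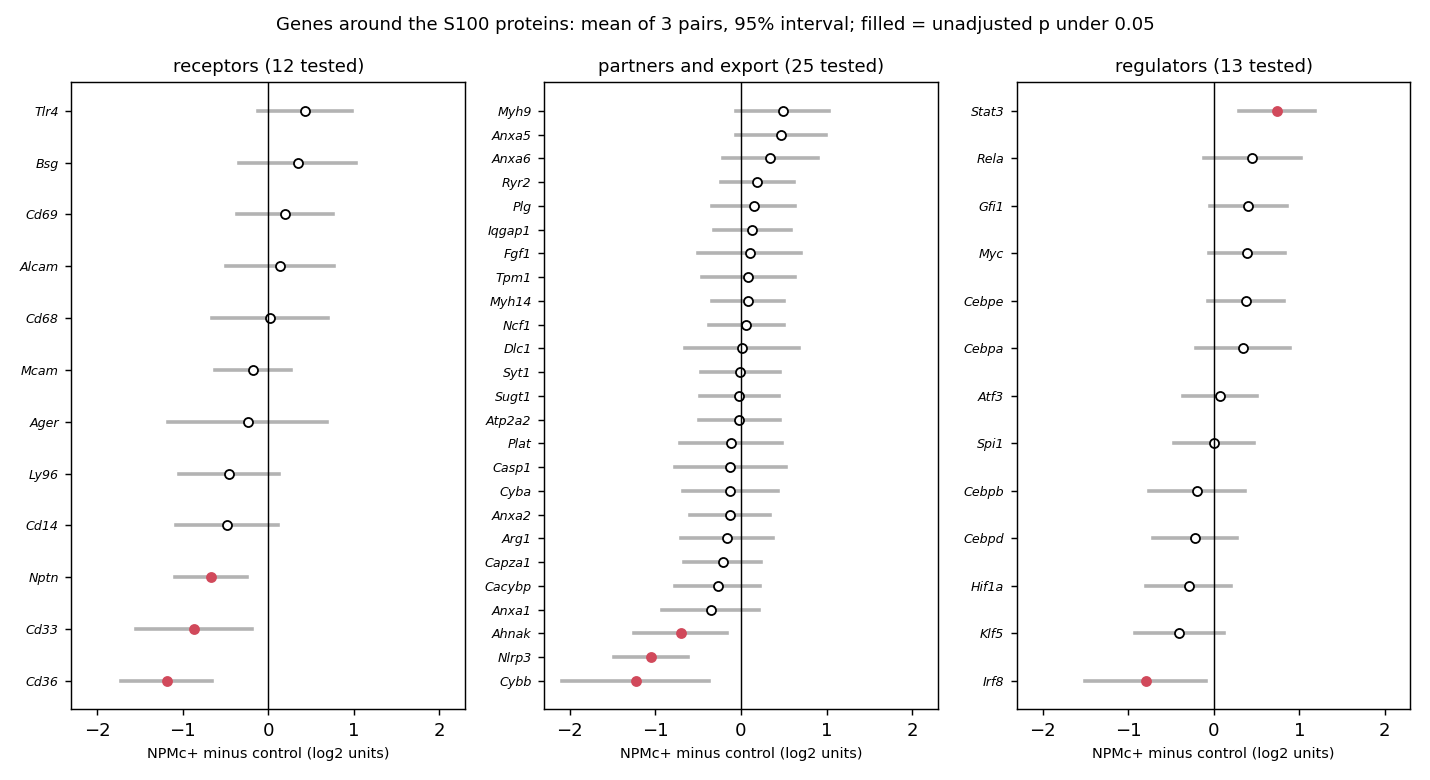
NPMc+ minus control difference (log2 units, horizontal axes) of the tested receptor, partner and regulator genes, ordered by the mean of 3 pairs (circles) with 95% intervals of the blocked limma fit. Filled circles have an unadjusted p under 0.05; they are Cd36, Cd33, Nptn, Cybb, Nlrp3, Ahnak and Irf8 on the lower side and Stat3 on the higher side.

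The outcome depended on how the pairs entered the fit. Without the pair as a block, limma called S100a4 (adjusted p 0.0173) and S100a10 (adjusted p 0.0380) of the 8, and 828 of all genes. That fit counts each array as free although the deposited values are centred on the pairs, so its p-values are too small, and the blocked values stand above. With 3 pairs the precision is limited by the number of arrays, and the median SE over all genes was 0.202 log2 units.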

How the data were processed

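RNA of sorted LT-HSC was measured on 6 arrays, 3 of NPMc+ and 3 of control pools, from about 5 ng of total RNA per the labels' protocols. The authors deposited a single table of log2 expression values for 41345 probe sets. RMA was used per the submitters' processing notes; no version or later step is given in the sources used here. The medians of the arrays were 3.90 to 3.99. Groups and replicate numbers came from the sample titles.

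Probe sets with exactly 1 symbol in the platform annotation (23521; 1814 had several and 16010 none) were kept, the brightest per gene. Those whose mean over the 6 arrays fell under the 25th percentile were dropped, which left 16635 genes. The members, each with its only probe set, all passed. For 100% of probe sets the mean of a same-numbered pair was equal in the 3 pairs within 0.001 log2 units, and the departures of paired arrays from the mean of their group had a correlation of -1, so the numbers pair the samples. Differences are NPMc+ minus control, from limma 3.58.1 in R 4.3.3 (data.table, version 1.17.8) with the pair as a block, 2 residual and 4.54 prior degrees of freedom, two-sided, adjusted by Benjamini-Hochberg over all genes tested. The fit was tested on simulated data.

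The 8 members and the 14 other lists were chosen with earlier results of these data known, so lists are given as counts and medians only. Named genes were all members, the 5 nearest genes of the 3 members with the largest mean difference, list genes at an unadjusted p under 0.05 and a few fixed receptors, factors and granule genes; Trem3, Anxa1, Anxa5, Anxa6, Myh9, Fgf1, S100a2, S100pbp, Mpo, Elane and Procr were named after their values were seen. RefSeq tables (GRCm38.p6) gave promoters, gene order and a check of symbols (0 changed); the build of the array annotation is not given in the sources used here. Plots used Python 3.11.15 and matplotlib 3.10.9. Alternatives were no block, quantile normalization, no or a stricter filter on dim genes, an intensity trend, the mean over a gene's probe sets and each pair left out.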

Additional observations from a re-analysis of the deposited data

How the results depend on the processing

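The S100 members past an adjusted p of 0.05 in limma numbered 0 with the replicate block and 2 with no replicate block, S100a4 and S100a10, and all genes past it numbered 0 and 828. Leaving out each pair gave 0 members each time and 0 to 24 genes, the 24 without pair 3. Members at an unadjusted p under 0.05 numbered 2 with the block, 5 without it, 5 with an intensity trend and 1 to 5 with a pair left out; the 5 without pair 3 were S100a4, S100a6, S100a8, S100a9 and S100a13, and the 1 without pair 1 or without pair 2 was S100a4. The members' median difference was -0.36 to -0.21 log2 units with a pair left out and -0.25 with all. The difference of S100a1 was -0.21 to 0.29 with a pair left out and changed sign without pair 2. Of the 72 combinations of a member with a setting, 69 kept direction and side of the adjusted threshold, and the S100a4 and S100a10 calls without the block were the 2 that passed it. Without the block the p-values are too small, since the deposited values are centred on the pairs. The cause of the other changes was not tested. Depth cannot be stated for arrays, and no background measurement was used.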
